A study of Mus musculus with 6 samples.

Results

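The 9 genes described here encode co-stimulatory receptors, and they were chosen by name from the 18057 genes of the deposited count table: Icos, Cd28, Cd226 and Cd6, and the TNF receptor superfamily genes Tnfrsf4, Tnfrsf9, Tnfrsf18, Tnfrsf25 and Tnfrsf1b. All 9 were in the table, and 8 passed the filter on low counts and were tested. Cd6 did not. RNA was sequenced from group 2 innate lymphoid cells (ILC2s), the lymphocytes that release type 2 cytokines in response to alarmins, sorted from mouse lung. The mice had been given 3 intranasal doses of 1 µg recombinant IL-33, and the cells were then cultured with IL-2 and IL-7, each at 10 ng/mL, for 24 h. The WT group (3 libraries) is labelled with the genotype Il7rcre, and the Piezo1_KO group (3 libraries) with Il7rcrePiezo1flx, so by genotype both carry the Cre recombinase driven from the Il7r locus, and only the second a floxed Piezo1 gene, which encodes a mechanically gated cation channel. This driver acts throughout the lymphoid lineage and not in ILC2s alone, and the labels state neither the number of Cre or floxed alleles nor the age of the mice.

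Co-stimulatory receptors do not start a response in ILC2s, which have no antigen receptor, but they raise survival, proliferation and cytokine output when alarmins and the common gamma chain cytokines are present. ICOS and CD28 are related immunoglobulin-superfamily receptors that recruit phosphoinositide 3-kinase, CD226 (DNAM-1) binds nectin-family ligands, and CD6 is a scavenger-receptor protein best known from T cells. The TNF receptor superfamily members OX40 (Tnfrsf4), 4-1BB (Tnfrsf9), GITR (Tnfrsf18), DR3 (Tnfrsf25) and TNFR2 (Tnfrsf1b) signal through TRAF adaptors to NF-kB, and DR3 alone of these 5 carries a death domain. ICOS with its ligand on the same cells, and GITR, OX40 and DR3 with theirs, are known as regulators of lung ILC2s.

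Library totals lay between 13059046 and 33459904 estimated counts. The labels do not state that the replicates came from separate mice, so the spread on which p-values rest could be technical only. Piezo1 itself was at 247, 278 and 160 CPM (counts scaled to library size, with TMM factors) in WT replicates 1 to 3 and at 150, 109 and 122 CPM in Piezo1_KO. Its groups did not overlap, although its log2 fold change of −0.85 ± 0.21 (SE) missed the threshold (adjusted p = 0.112, edgeR). Counts over the whole gene can include exons that a deletion leaves in place, and the extent of the deletion in these cells was not tested. All 14 listed ILC2 identity genes were tested: Il17rb, a receptor gene for IL-25, rose, with 39.7 ± 2.98 CPM in WT and 66.4 ± 3.49 CPM in Piezo1_KO (SD, n = 3; edgeR, adjusted p = 0.0136). Il7r, which encodes the IL-7 receptor and is the locus that drives the Cre in both groups, fell from 66.8 ± 8.25 to 32.8 ± 2.03 CPM (SD, n = 3, log2 fold change −1.03 ± 0.12 SE, adjusted p = 0.00722, edgeR). In DESeq2 3 of the 14 were higher and 2 lower, and at an unadjusted p under 0.05 in edgeR 8 were higher and 3 lower. Gata3, the transcription factor that defines ILC2s, was at 954 to 1035 CPM in WT and at 703 to 789 CPM in Piezo1_KO, without overlap (adjusted p = 0.0612 in edgeR and 0.00198 in DESeq2). Il1rl1, the IL-33 receptor gene, was at 736 to 995 CPM in WT and 745 to 841 CPM in Piezo1_KO, with overlapping groups. Thy1 was at 5.47 to 9.31 CPM in WT and 14.2 to 17.3 CPM in Piezo1_KO, higher without overlap (adjusted p = 0.0603 in edgeR and 0.000645 in DESeq2). Gata3, Il1rl1 and Thy1 were named after their values had been seen. Over the 14 genes, 9 log2 fold changes were positive and 5 negative, with a median of 0.29. The part of the differences in ILC2 identity genes in the receptor changes was not tested. Of 14149 genes tested, 72 (0.509%) were lower and 142 (1.00%) higher in Piezo1_KO at an adjusted p under 0.05 (edgeR's quasi-likelihood test, Benjamini-Hochberg adjustment over all genes tested). At an unadjusted p under 0.05 in edgeR, 977 of these genes were lower and 892 higher. In DESeq2, 235 of them were lower and 347 higher at an adjusted p under 0.05. The list counts below are to be read beside these.

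Transcripts of 4 of the 8 tested receptors fell in Piezo1_KO: Icos, Cd28, Cd226 and Tnfrsf25. None rose, also at an unadjusted p under 0.05 (0 of 8, where 6.30% of all tested genes did) and in DESeq2 (0). The groups did not overlap for any of these 4, an arrangement found in the downward direction for 10.5% of all tested genes. The 3 immunoglobulin-superfamily receptors that were tested all fell, by 1.5-fold to 2.72-fold, and of the 5 TNF receptor superfamily members only the gene for DR3 passed the threshold. The 8 tested receptors had a median log2 fold change of −0.41, against 0.02 over all genes tested, and 7 of the 8 values were negative. Over all 14149 tested genes, 6651 values were negative. In bulk RNA a lower level can mean fewer cells with the transcript or less transcript per cell, and these cannot be told apart here.

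**Figure D1:**
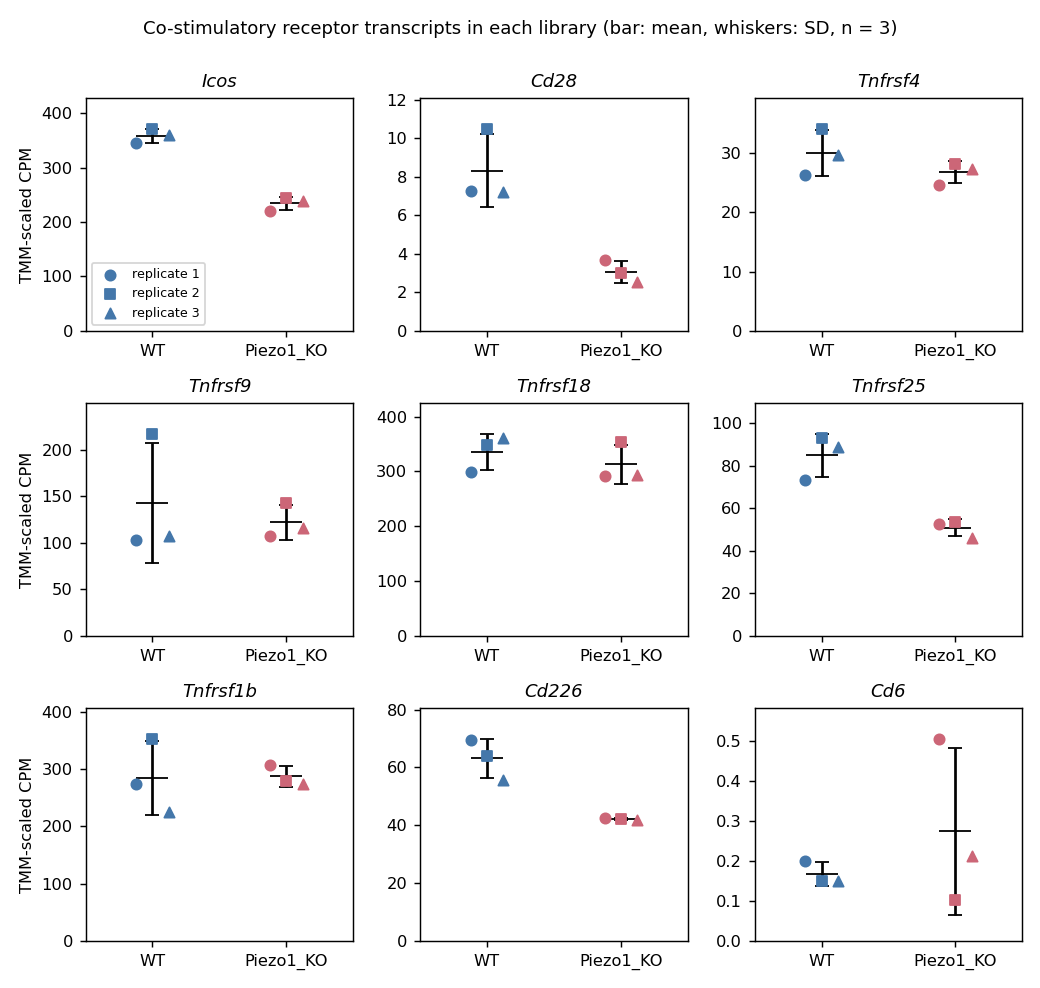
TMM-scaled CPM (y axis, from 0, a separate scale per gene) of the 9 receptor genes in the WT and Piezo1_KO libraries. Symbols mark the replicate, horizontal bars the mean and whiskers the SD (n = 3). Icos, Cd28, Tnfrsf25 and Cd226 are lower in all 3 Piezo1_KO libraries than in any WT library, and the other 5 panels show groups that overlap.

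Icos, the inducible co-stimulator, was the most abundant of the receptors that fell. Its level was 345, 371 and 360 CPM in WT replicates 1, 2 and 3 and 220, 244 and 238 CPM in Piezo1_KO. The libraries of each group lay close together and well apart from the other group. The mean went from 358 ± 13.1 to 234 ± 12.3 CPM (SD, n = 3), a 1.53-fold fall with a log2 fold change of −0.61 ± 0.09 (SE, 95% interval −0.81 to −0.42, adjusted p = 0.0168, edgeR). The gene (ENSMUSG00000026009.14) lies on chromosome 1 at 60977927 to 61000320 in mm10, plus strand, and the short unconfirmed gene Gm37039 lies within it on that strand. Gm37039 was at 2.36 to 4.35 CPM in WT and 0.811 to 1.52 CPM in Piezo1_KO, also lower without overlap (adjusted p = 0.131, edgeR).

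Cd28 had the largest fold change among the receptors, at a low level. It was at 7.24, 10.5 and 7.20 CPM in WT and at 3.68, 3.01 and 2.52 CPM in Piezo1_KO, which stands on 96 to 352 counts per WT library and 59 to 87 per Piezo1_KO library. The lowest WT library stood at nearly 2 times the highest Piezo1_KO library. The fall was 2.72-fold (log2 fold change −1.44 ± 0.25 SE, 95% interval −2.02 to −0.87, adjusted p = 0.0332, edgeR). Cd28 (ENSMUSG00000026012.2) lies on chromosome 1 at 60716800 to 60773359, plus strand, with 205 kb between it and Icos.

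Cd226, which encodes the adhesion and activating receptor DNAM-1, was at 69.5, 64.0 and 55.8 CPM in WT and at 42.6, 42.0 and 42.0 CPM in Piezo1_KO. The Piezo1_KO libraries were almost level, and the WT libraries ranged more widely above them. The means were 63.1 ± 6.89 and 42.2 ± 0.37 CPM (SD, n = 3), a 1.5-fold fall (log2 fold change −0.58 ± 0.11 SE, 95% interval −0.82 to −0.34, adjusted p = 0.0387, edgeR). Cd226 lies on chromosome 18, away from the other receptor genes.

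Tnfrsf25, the gene for the TL1A receptor DR3, was at 73.5, 92.9 and 88.7 CPM in WT and at 52.6, 53.7 and 46.3 CPM in Piezo1_KO. The lowest WT library was still above the highest Piezo1_KO library. The mean fell from 85.0 ± 10.2 to 50.8 ± 4.0 CPM (SD, n = 3), or 1.67-fold (log2 fold change −0.74 ± 0.12 SE, 95% interval −1.01 to −0.47, adjusted p = 0.0259, edgeR). The gene (ENSMUSG00000024793.14) lies on chromosome 4 at 152115934 to 152120119, plus strand. Its nearest tested protein-coding neighbours, within 1 kb on either side, were Plekhg5 and Espn. Plekhg5 was at 9.89 CPM in WT and 10.6 CPM in Piezo1_KO, and Espn at 27.5 and 21.03 CPM. Neither neighbour passed the threshold (adjusted p = 0.895 and 0.183, edgeR), although Espn was lower in every Piezo1_KO library than in any WT library.

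These 4 calls depended on which libraries were kept. All 4 were kept without WT replicate 2 and without WT replicate 3, and all 4 were lost without WT replicate 1 or without any 1 of Piezo1_KO replicates 1, 2 and 3. In those 4 reduced fits the adjusted p of the 4 genes lay between 0.0594 and 0.232 (edgeR), the direction was unchanged, and 33 to 53 genes were called in all.

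**Figure D2:**
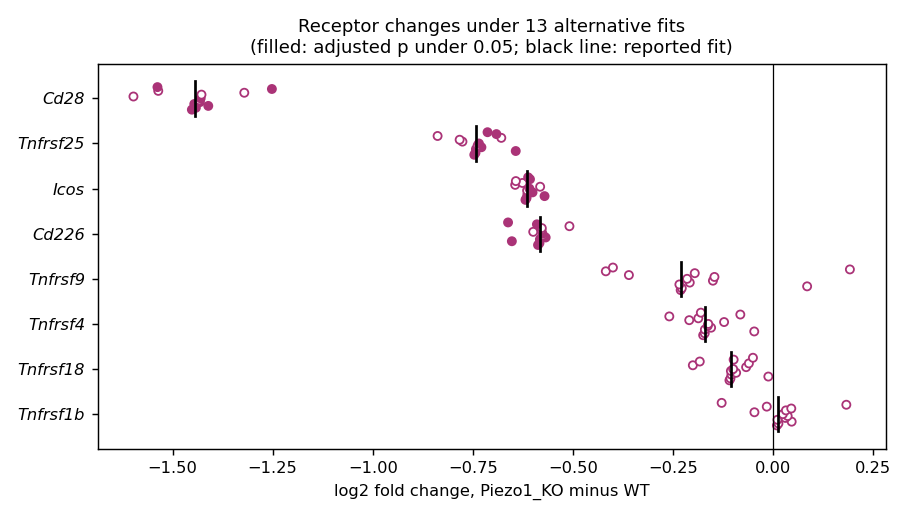
Log2 fold change, Piezo1_KO minus WT (x axis), of the 8 tested receptors in each of 13 alternative fits (points, filled where the adjusted p was under 0.05), with the reported fit as a black line. Icos, Cd28, Tnfrsf25 and Cd226 are negative in all 13 and filled in 8, and no point of the other 4 receptors is filled.

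The remaining TNF receptor superfamily members did not pass the threshold, and their intervals set bounds on a change. Tnfrsf18, which encodes GITR, was at 299, 348 and 362 CPM in WT and at 292, 353 and 293 CPM in Piezo1_KO. The groups overlapped, and the log2 fold change of −0.10 had a 95% interval of −0.37 to 0.16 (adjusted p = 0.764, edgeR). A fall as large as the point estimate of Tnfrsf25 lies outside that interval. Tnfrsf4, the OX40 gene, was at 26.3, 34.1 and 29.7 CPM in WT and at 24.6, 28.2 and 27.4 CPM in Piezo1_KO, again overlapping (log2 fold change −0.17, 95% interval −0.46 to 0.12, adjusted p = 0.638, edgeR).

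Tnfrsf1b, the TNFR2 gene, was at 274, 354 and 226 CPM in WT and at 308, 280 and 274 CPM in Piezo1_KO. The 3 WT libraries spanned the whole Piezo1_KO range, and the log2 fold change was 0.01 (95% interval −0.35 to 0.37, adjusted p = 0.984, edgeR). Tnfrsf9, the 4-1BB gene, was at 103, 217 and 107 CPM in WT and at 107, 143 and 116 CPM in Piezo1_KO. WT replicate 2 stood at about 2 times the other WT libraries, and Tnfrsf9 had the widest interval of the 8 receptors (log2 fold change −0.23, 95% interval −0.87 to 0.41, adjusted p = 0.785, edgeR). Without WT replicate 2 its log2 fold change was 0.19, so the sign of this value rests on 1 library. Cd6 was barely detected, with 2 to 12 counts per library, or 0.104 to 0.507 CPM, and was not tested.

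**Figure D3:**
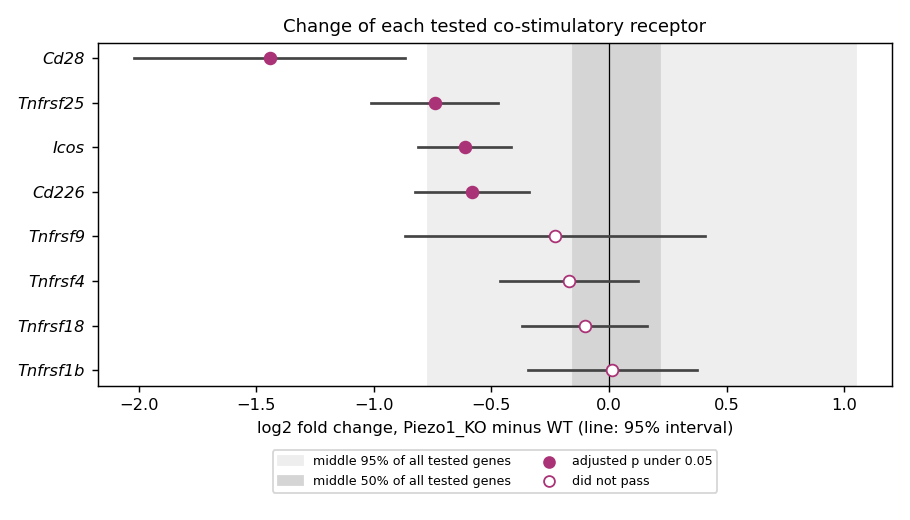
Log2 fold change, Piezo1_KO minus WT (x axis), of the 8 tested receptors with 95% intervals (lines). Filled points had an adjusted p under 0.05, and shaded bands show the middle 50% and 95% of all 14149 tested genes. Cd28, Tnfrsf25, Icos and Cd226 are filled, from −1.44 to −0.58, and the intervals of the other 4 cross 0.

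The receptors also differed widely in level. Per kilobase of annotated exon, Tnfrsf18 was the highest in WT at 196 to 237 CPM per kb, followed by Icos at 100 to 108 CPM per kb. The next levels were Tnfrsf1b (59.2 to 92.6 CPM per kb), Tnfrsf9 (38.0 to 79.8 CPM per kb) and Tnfrsf25 (32.3 to 40.8 CPM per kb), of which Tnfrsf9 overlapped both of the others. Tnfrsf4 (19.2 to 25.01 CPM per kb) and Cd226 (11.4 to 14.2 CPM per kb) were lower, Cd28 was at 1.18 to 1.72 CPM per kb, and Cd6 was at 0.0187 to 0.0253 CPM per kb. In Piezo1_KO the order changed at one place: Icos, at 64.3 to 71.1 CPM per kb, lay below Tnfrsf1b, at 71.8 to 80.7 CPM per kb. Tnfrsf25 (20.3 to 23.6 CPM per kb) also came to overlap Tnfrsf4 (18.1 to 20.7 CPM per kb) there. Exon lengths are those of GENCODE and may differ from the annotation the authors counted on, so these levels are approximate.

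The receptor genes lie in a few chromosomal groups, and the genes beside them were read too. All 5 TNF receptor superfamily members lie on chromosome 4. Tnfrsf4 (156013843 to 156016612) and Tnfrsf18 (156026164 to 156028895) are 9.55 kb apart, Tnfrsf9 (150914562 to 150946102) and Tnfrsf25 are 1170 kb apart, and Tnfrsf1b (145213463 to 145246870, minus strand) is 20.3 kb from Tnfrsf8, the CD30 gene. Tnfrsf8 rose, and was at 420, 472 and 359 CPM in WT and at 734, 644 and 619 CPM in Piezo1_KO (log2 fold change 0.67 ± 0.12 SE, adjusted p = 0.0381, edgeR). Within each library, the ratio of Tnfrsf8 to Tnfrsf1b was 1.54, 1.33 and 1.59 in WT and 2.38, 2.30 and 2.26 in Piezo1_KO. The ratio of Tnfrsf18 to Tnfrsf25 was 4.07, 3.74 and 4.08 in WT and 5.55, 6.58 and 6.34 in Piezo1_KO. Neither ratio overlapped between the groups, and each had an exact two-sided permutation p of 0.1, the smallest that 3 libraries against 3 allow. Each sets a gene already called, without overlap, beside one that did not pass, so it largely restates the change of the called gene. Parts of Tnfrsf9 and Tnfrsf18 are overlapped on the other strand by Camta1 (7.68 to 12.1 CPM) and Gm16008 (2.21 to 3.85 CPM), and no source used here tells whether reads were counted by strand.

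On chromosome 1, Ctla4 lies between Cd28 and Icos. The nearest tested protein-coding genes on the outer sides both lay lower in every Piezo1_KO library without passing the threshold. They are far from the receptor genes: Raph1 lies 149.7 kb from Cd28 and Pard3b 638.5 kb from Icos. Raph1 was at 10.9 to 14.1 CPM in WT and 8.08 to 8.58 CPM in Piezo1_KO (adjusted p = 0.192, edgeR). Pard3b was at 2.85 to 4.30 and 1.62 to 2.39 CPM (adjusted p = 0.344, edgeR). CTLA-4 is the inhibitory receptor that competes with CD28 for CD80 and CD86. Ctla4 was at 7.55, 8.57 and 4.50 CPM in WT and at 13.6, 19.3 and 15.3 CPM in Piezo1_KO, higher in every Piezo1_KO library than in any WT library. Its log2 fold change of 1.21 ± 0.25 (SE) missed the threshold in edgeR (adjusted p = 0.0680) and passed it in DESeq2 (adjusted p = 0.000371). The ratio of Ctla4 to Cd28 was 1.04, 0.815 and 0.625 in WT and 3.70, 6.41 and 6.07 in Piezo1_KO, with no overlap (exact two-sided permutation p = 0.1, the smallest possible). Ctla4 was higher and Cd28 lower in every Piezo1_KO library than in any WT library. The lack of overlap in this ratio and its p were therefore fixed in advance and add nothing to the levels. In all, 4 ratios of this kind were computed, after the levels had been seen, and each had a p of 0.1, also after Benjamini-Hochberg adjustment. The one not given above, Tnfrsf18 to Icos, was 0.868, 0.938 and 1.005 in WT and 1.32, 1.45 and 1.23 in Piezo1_KO.

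**Figure D4:**
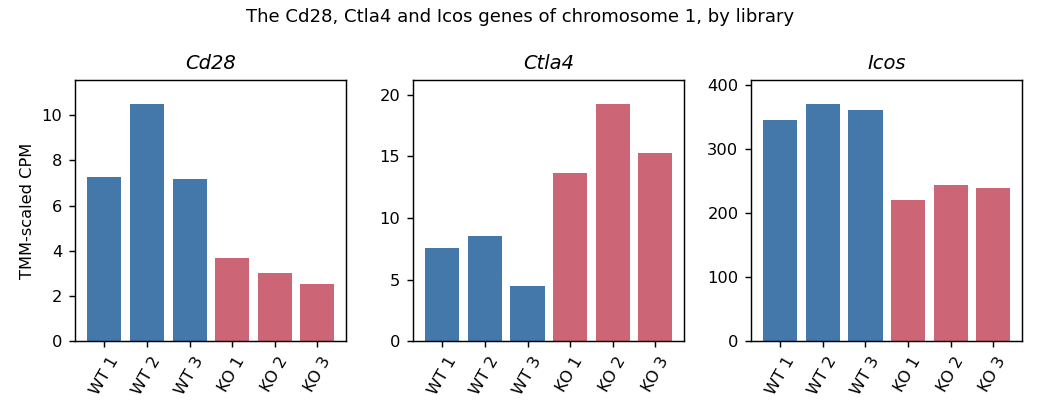
TMM-scaled CPM (y axis, from 0, a separate scale per gene) of Cd28, Ctla4 and Icos in each WT (blue) and Piezo1_KO (red) library, in their order along chromosome 1. Cd28 and Icos are lower in all 3 Piezo1_KO libraries, and Ctla4, which lies between them, is higher in all 3.

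Promoter sequences were at hand for the 5 TNF receptor superfamily genes, in 7 windows of RefSeq (GRCm38.p6) that reach from 250 bases before a transcript start to 50 after it. Icos, Cd28, Cd226 and Cd6 had no entry. Shown are both Tnfrsf25 windows, as the TNF receptor gene that fell, beside the second Tnfrsf9 window and the Tnfrsf18 window, of genes that did not pass. Capitals mark matches, on either strand, to motifs of 5 transcription factor families. These were the NF-kB consensus, the AP-1 site spelled TGANTCA, the STAT site spelled TTCNNNGAA, the ETS site spelled CGGAAG, and 2 sites of GATA factors, spelled AGATAA and, with another first base, TGATAA. A site that reads the same on both strands counts as 1 match. All run 5′ to 3′ on the plus strand.
Tnfrsf25 first start, chr4:152115684-152115983: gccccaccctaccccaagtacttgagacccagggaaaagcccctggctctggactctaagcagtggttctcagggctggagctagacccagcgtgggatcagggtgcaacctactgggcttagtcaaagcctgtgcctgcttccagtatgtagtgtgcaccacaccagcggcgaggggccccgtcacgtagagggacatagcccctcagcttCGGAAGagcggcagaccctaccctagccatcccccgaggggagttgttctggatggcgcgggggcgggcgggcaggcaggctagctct
Tnfrsf25 second start, chr4:152116093-152116392: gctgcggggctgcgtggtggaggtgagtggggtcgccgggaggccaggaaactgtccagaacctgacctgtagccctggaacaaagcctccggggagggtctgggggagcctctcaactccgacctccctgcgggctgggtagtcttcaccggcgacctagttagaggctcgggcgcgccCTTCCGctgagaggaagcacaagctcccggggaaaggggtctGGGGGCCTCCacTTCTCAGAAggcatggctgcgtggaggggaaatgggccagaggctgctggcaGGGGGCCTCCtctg
Tnfrsf18, chr4:156026072-156026371: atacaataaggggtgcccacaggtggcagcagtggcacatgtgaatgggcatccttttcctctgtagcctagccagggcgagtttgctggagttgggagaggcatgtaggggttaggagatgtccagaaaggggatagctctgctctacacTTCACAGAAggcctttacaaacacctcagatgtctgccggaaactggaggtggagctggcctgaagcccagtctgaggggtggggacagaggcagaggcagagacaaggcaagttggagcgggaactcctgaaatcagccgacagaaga
Tnfrsf9 second start, chr4:150927749-150928048: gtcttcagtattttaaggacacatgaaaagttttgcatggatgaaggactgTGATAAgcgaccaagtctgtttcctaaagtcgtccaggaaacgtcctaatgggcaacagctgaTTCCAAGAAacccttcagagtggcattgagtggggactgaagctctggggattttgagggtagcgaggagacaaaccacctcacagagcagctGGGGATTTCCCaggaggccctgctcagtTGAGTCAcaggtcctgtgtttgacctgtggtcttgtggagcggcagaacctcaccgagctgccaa

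The first Tnfrsf25 window held 1 ETS match, 38 bases before the start. The second held 1 STAT, 1 ETS and 2 NF-kB matches. The Tnfrsf18 window held 1 STAT match, and the second Tnfrsf9 window held NF-kB (2 overlapping placements), AP-1, STAT and GATA matches. Of the windows not shown, that of Tnfrsf1b held a STAT and an ETS match, that of Tnfrsf4 a GATA match, and the first of Tnfrsf9 none. NF-kB, STAT and ETS matches were thus each found for the gene that fell and for at least 1 gene that did not pass. Over all 32851 mouse windows of this length, the share with at least 1 match was 8.46% for NF-kB, 7.81% for AP-1, 18.6% for GATA, 8.3% for STAT and 16.9% for ETS. A match describes the letters in the window and shows neither binding nor use of the site.

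Ligands for these receptors were measured in the same cells. Of 11 tested ligand genes, 0 passed in either direction in edgeR and 0 in DESeq2. At an unadjusted p under 0.05 in edgeR, 3 were higher and 3 lower, and their median log2 fold change was −0.19. The smallest p was that of Cd80, a ligand of CD28 and CTLA-4, at 1.46, 2.45 and 1.27 CPM in WT and 4.10, 3.80 and 3.63 CPM in Piezo1_KO (log2 fold change 1.13 ± 0.32 SE, adjusted p = 0.160, edgeR). These groups did not overlap, at a level of a few CPM. Icosl, whose product is the ICOS ligand, was at 8.80, 12.7 and 11.5 CPM in WT and 13.3, 12.1 and 14.1 CPM in Piezo1_KO, with overlapping groups (adjusted p = 0.595, edgeR), while its receptor gene fell. Tnfsf9, the 4-1BB ligand gene, was higher in every Piezo1_KO library (19.6 to 22.5 CPM against 12.02 to 16.9 CPM, adjusted p = 0.203, edgeR), and so was Pvr, which encodes a CD226 ligand (11.1 to 13.2 against 6.82 to 9.32 CPM, adjusted p = 0.179, edgeR). Of the ligand genes with lower values, Cd86, whose product shares its receptors with that of Cd80, was at 0.654, 0.657 and 1.65 CPM in WT and 0.254, 0.173 and 0 CPM in Piezo1_KO. The Cd86 groups did not overlap, in the opposite direction to Cd80 and at a lower level (log2 fold change −2.69 ± 0.85 SE, adjusted p = 0.212, edgeR). Ltb (48.2 to 61.8 against 37.1 to 45.7 CPM, adjusted p = 0.240, edgeR) and Lta (68.2 to 88.7 against 61.0 to 66.4 CPM, adjusted p = 0.342, edgeR), the lymphotoxin genes, also lay lower in every Piezo1_KO library. So did Tnf (9.86 to 10.1 against 7.47 to 8.88 CPM, adjusted p = 0.433, edgeR). Apart from Cd80, these ligand genes were chosen after their values had been seen.

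Among 26 tested adaptors and kinases that act below these receptors, 0 passed in edgeR and 1 fell in DESeq2. At an unadjusted p under 0.05 in edgeR, 0 were higher and 4 lower, and the median log2 fold change was −0.001. Prkcq, the kinase PKC-theta that CD28 engages, had the smallest p, at 52.1, 53.4 and 49.8 CPM in WT and 37.2, 39.0 and 39.2 CPM in Piezo1_KO. Its groups did not overlap, and its log2 fold change was −0.43 ± 0.09 (SE, adjusted p = 0.0672 in edgeR and 0.00835 in DESeq2). Of 16 NF-kB subunits and inhibitors, 1 fell and 0 rose, 13 of 16 values were negative and the median was −0.20. In DESeq2 3 of the 16 fell and 0 rose, and at an unadjusted p under 0.05 in edgeR 7 were lower and 0 higher. Over all 14149 tested genes, 977 were lower and 892 higher at that p, and 6651 values were negative. The gene that fell in edgeR was Nfkbiz, which encodes the nuclear regulator IkB-zeta, from 37.0 ± 5.36 to 20.9 ± 1.60 CPM (SD, n = 3, log2 fold change −0.82 ± 0.13 SE, adjusted p = 0.0270, edgeR). The other 2 that passed in DESeq2, chosen after their values had been seen, were Relb, the subunit gene of the non-canonical pathway (23.7 ± 3.27 to 13.1 ± 2.15 CPM, SD, n = 3, adjusted p = 0.0541 in edgeR and 0.000681 in DESeq2), and Nfkbid, which encodes another nuclear IkB protein (adjusted p = 0.0944 in edgeR and 0.0115 in DESeq2).

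Related receptors outside the 9 were counted in the same way. Of 17 tested other TNF receptor superfamily members, Tnfrsf8 rose and 16 did not pass, with a median log2 fold change of 0.01. In DESeq2 1 of the 17 rose and 0 fell, and at an unadjusted p under 0.05 in edgeR 2 were higher and 0 lower. Of 12 other immunoglobulin, SLAM, scavenger and adhesion receptors, 1 rose, 0 fell and the median was 0.06. In DESeq2 3 of the 12 rose (Cd48, Ctla4 and Slamf6) and 0 fell, and at an unadjusted p under 0.05 in edgeR 4 were higher and 1 lower. The gene that rose in edgeR was Cd48, a SLAM-family ligand and receptor, at 180, 197 and 177 CPM in WT and 328, 365 and 321 CPM in Piezo1_KO. All Piezo1_KO libraries were far above all WT libraries (log2 fold change 0.87 ± 0.09 SE, adjusted p = 0.00542, edgeR).

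**Figure D5:**
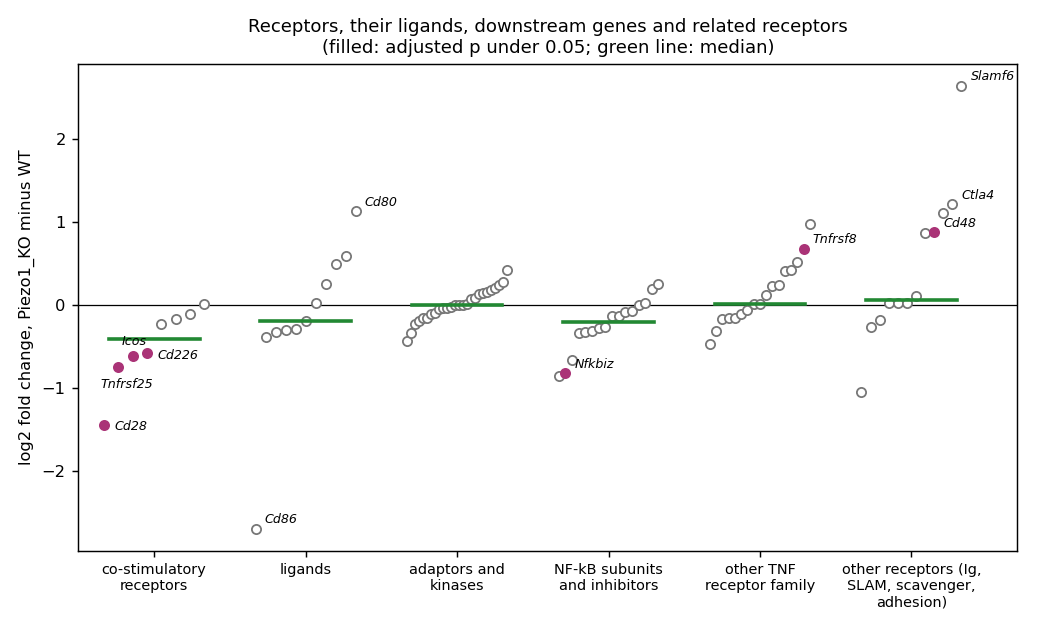
Log2 fold change, Piezo1_KO minus WT (y axis), of each tested gene in the receptor list and 5 related lists, ordered by value within a list. Filled points had an adjusted p under 0.05 and green lines are medians. The 4 filled receptors lie below 0, Tnfrsf8 and Cd48 are the filled points above 0 in the related receptor lists, and no ligand, adaptor or kinase is filled.

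By a rule of likeness, Icos, Tnfrsf25 and Cd28 were set beside the genes with the nearest pattern over the 6 libraries. Likeness was the root-mean-square distance between log2 CPM values centred on each gene's mean, over 8645 other genes. Nearest to Icos were Enpp4, Rab15 and the class I gene H2-T22, at distances of 0.054 to 0.0658. Tnfrsf25 was nearest to Tmem176b, Pakap and Slc25a10, at 0.0529 to 0.0818, and Cd28 to Lmna, Irf8 and Fam160a2, at the larger distances of 0.189 to 0.235. With 6 libraries in 2 groups, such a pattern is mostly the difference between the groups.

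Since Cd28, Icos and Cd226 are also T cell and NK cell genes, markers of other cells were read beside them. Of 13 T cell markers listed, 9 were in the table and 8 tested. Lck, a kinase that ILCs also express, rose and 0 fell in edgeR, 1 rose and 2 fell in DESeq2, and 1 was higher and 3 lower at an unadjusted p under 0.05 in edgeR. The summed level was 331 to 386 CPM in WT and 330 to 373 CPM in Piezo1_KO. Its largest part was Zap70, at 152 to 174 CPM in WT and 151 to 172 CPM in Piezo1_KO, and it includes the rise of Lck (11.9 to 15.4 against 32.6 to 40.4 CPM). The sum thus says little about the other markers. Of the 8 tested, 6 had a negative and 2 a positive log2 fold change, with a median of −0.24. Cd3e was at 2.36, 3.14 and 3.00 CPM in WT and 0.930, 1.04 and 1.62 CPM in Piezo1_KO, without overlap (adjusted p = 0.143 in edgeR and 0.0481 in DESeq2). Cd247, the CD3-zeta gene that NK cells also use, was at 10.7 to 14.4 CPM in WT and 6.88 to 8.54 CPM in Piezo1_KO, also without overlap (adjusted p = 0.132 in edgeR and 0.0375 in DESeq2). Both lay in the direction of Cd28. Trbc2, a constant-region gene of the T cell receptor beta chain, was at 95.1 to 123 CPM in WT and 76.0 to 94.8 CPM in Piezo1_KO (adjusted p = 0.337, edgeR), so these groups did not overlap but nearly met. Trbc1, at 24.0 to 36.7 CPM, and Cd3g, at 17.8 to 31.7 CPM, overlapped between the groups. The alpha-chain gene Trac, at 0.329 to 0.805 CPM, overlapped as well. Cd3d, which was not tested, lay in the other direction from Cd3e and Cd247. It was at 0.150 to 0.239 CPM in WT and 0.427 to 0.691 CPM in Piezo1_KO, higher without overlap. Trac and Cd3d were the lowest of the list. Of 7 NK cell and ILC1 markers, 3 were in the table and all 3 were tested. Tbx21 fell, to 0 counts in every Piezo1_KO library, and 0 rose in edgeR. In DESeq2 1 fell and 0 rose, and at an unadjusted p under 0.05 in edgeR 2 were lower and 0 higher. The summed level was 63.9 to 87.3 CPM in WT and 40.2 to 59.8 CPM in Piezo1_KO, most of it Gzma. Prf1 alone of the 3 had a positive log2 fold change (0.72, adjusted p = 0.575, edgeR). Its means were 2.26 CPM in WT and 3.75 CPM in Piezo1_KO, and its groups overlapped. Macrophage, granulocyte and mast cell markers (10 of 11 in the table, 7 tested, 1 fell) summed to 14.8 to 23.7 CPM in WT and 7.86 to 12.9 CPM in Piezo1_KO, and 4 of the 7 were lower and 0 higher at an unadjusted p under 0.05. The one that fell was Cma1, a mast cell chymase gene, with 5.45 ± 1.59 CPM in WT and 1.31 ± 0.42 CPM in Piezo1_KO (SD, n = 3; edgeR, adjusted p = 0.0312). Of the 7 tested, 6 had a negative and 1 a positive log2 fold change. The positive one was Cd68, higher without overlap (1.91 to 2.84 CPM in WT and 3.09 to 4.18 CPM in Piezo1_KO, adjusted p = 0.397, edgeR). Within the WT sums, Lyz2 was at 1.06, 1.55 and 6.75 CPM in replicates 1, 2 and 3. The 4 regulatory T cell markers summed to 31.0 to 36.9 CPM in WT and 40.9 to 49.2 CPM in Piezo1_KO, with 0 called in edgeR, 1 higher at an unadjusted p under 0.05 and 1 higher in DESeq2, in both Ctla4. Most of this sum was Ikzf2, whose groups overlapped (23.3 to 28.1 CPM in WT and 21.5 to 32.9 CPM in Piezo1_KO). Foxp3 alone of the 4 had a negative log2 fold change. It was at 0.755, 2.45 and 3.00 CPM in WT and 1.14, 0.967 and 0.769 CPM in Piezo1_KO, with overlap (adjusted p = 0.418, edgeR). B cell markers (16.6 to 18.8 against 22.3 to 26.5 CPM) and epithelial and stromal markers (10.2 to 15.3 against 13.9 to 18.5 CPM) were low in both groups, with 1 tested gene each, Cd79b and Epcam. Of these 2 genes 0 were called in edgeR or DESeq2, and 1 (Cd79b, higher) had an unadjusted p under 0.05. The lowest sum of any gene in the deposited table was 10 counts over the 6 libraries. None of these genes could therefore be at 0 throughout, and listed markers missing from the table have no values here. The part of such cells in the receptor changes was not tested.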

How the data were processed

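RNA of sorted lung ILC2s (10 ng input per library) was sequenced by the authors. The deposited table holds the authors' estimated counts per gene, not scaled between libraries. Between 37.9% and 47.4% of values per library were not whole (by over 1e-09). Per the submitters' processing notes the build was mm10. No source used here names the aligner, counting tool or annotation. Libraries are rows, matched to samples by the label description, and the titles gave group and replicate number. The receptors, the 12 other gene lists and the rules for named genes were chosen with earlier results of these data known. Besides the 9 receptors, the rule names Piezo1, up to 3 called genes per list with the smallest p (or 1 if none was called), and the 3 nearest patterns for each called receptor (those of Cd226 are not reported here).

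Counts were rounded, filtered with filterByExpr (14149 genes kept), TMM-scaled and fitted on group alone with the quasi-likelihood functions glmQLFit and glmQLFTest (edgeR 4.0.16, R 4.3.3). Tests were two-sided, and p-values were Benjamini-Hochberg adjusted over all tested genes, with 0.05 as the threshold. Standard errors are the absolute log2 fold change over the square root of F, and 95% intervals use the fit's degrees of freedom. The median log2 fold change of all genes was 0.02. Replicates differed by far more than sampling noise (chi-square per gene 10.9 to 59.8, where 1 is noise alone). Gene positions and exon lengths came from GENCODE M21 (GRCm38, which is mm10), for 17579 symbols. Tested on simulated counts for the comparison of Piezo1_KO with WT (13875 genes), 50 genes were changed at each size, and the fit called 28% at 1.5-fold, 66% at 2-fold, 88% at 3-fold and 92% at 4-fold, with 11 false among its 148 calls. Alternatives were RLE scaling, no filter, a stricter filter (1 CPM in all libraries of a group), a replicate block, leaving out each library, DESeq2 1.42.0, limma-voom with quality weights (limma 3.58.1) and protein-coding genes only.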

Additional observations from a re-analysis of the deposited data

How the results depend on the processing

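Icos, Cd28, Tnfrsf25 and Cd226 were lower in Piezo1_KO in all 13 alternative fits and passed the threshold together in 8, with 0 receptors higher in any of them. The count of 4 lower receptors was kept with RLE scaling, no filter, the stricter filter, protein-coding genes only, limma-voom and DESeq2. Leaving out 1 library gave between 0 and 4 lower receptors, and between 33 and 297 genes called in all, against 214 with all 6 libraries. That total rose to 392 when non-coding genes were left out, 439 with limma-voom and 582 with DESeq2. The replicate number did not pair the libraries: deviations of same-numbered WT and Piezo1_KO libraries correlated at −0.0227, −0.183 and −0.00752, and 0 of 6 libraries correlated best with its own number. With the replicate number as a block, 52 genes and 0 receptors were called, and the adjusted p of these 4 receptors was 0.101 to 0.168 (edgeR). The sign of 2 receptors that did not pass changed. The Tnfrsf9 log2 fold change was 0.086 in limma-voom, and ranged from −0.42 to 0.19 when 1 library was left out (0.19 without WT replicate 2). That of Tnfrsf1b ranged from −0.13 to 0.18, negative without WT replicate 1, WT replicate 3 or Piezo1_KO replicate 1. The causes were not tested. Piezo1 passed in 4 of the 13 fits. In simulated data most 1.5-fold changes were missed at this depth and replication, and of the 4 receptors that did not pass, the 95% interval of Tnfrsf9 alone (−0.87 to 0.41) takes in a 1.5-fold fall. Cd6 was too low to test.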

Other observations

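Kinase genes of the phosphoinositide 3-kinase pathway, which ICOS and CD28 engage, held values in which 1 library stood apart. Akt1 was at 117, 149 and 90.8 CPM in WT and at 55.3, 65.1 and 256 CPM in Piezo1_KO replicates 1, 2 and 3. Pik3ca was at 28.0, 27.4 and 19.4 CPM in WT and at 20.5, 21.6 and 58.5 CPM in Piezo1_KO, again with replicate 3 the highest. Pik3cd, the isoform gene typical of leukocytes, did not show this, at 505, 556 and 418 CPM in WT and 599, 522 and 522 CPM in Piezo1_KO. These genes were singled out after their values had been seen.

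Among low-level immunoglobulin-superfamily receptors, Slamf6 and Cd160 lay higher in Piezo1_KO without passing the threshold in edgeR. Slamf6, of the SLAM family, was at 0.704, 0.299 and 0 CPM in WT and at 1.73, 2.00 and 2.90 CPM in Piezo1_KO (adjusted p = 0.155 in edgeR and 0.00514 in DESeq2). Of the other SLAM-family genes, Cd48 rose, as given above, and Slamf1, Cd84 and Ly9 overlapped between the groups (adjusted p = 0.523, 0.794 and 0.960, edgeR). Cd160 was at 1.91, 2.54 and 1.95 CPM in WT and at 4.27, 3.87 and 3.59 CPM in Piezo1_KO (adjusted p = 0.182 in edgeR and 0.120 in DESeq2). These genes were named after their values had been seen.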
